A study of Mus musculus with 7 samples.

Results

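Chemokines are small secreted proteins that guide leukocytes, and 10 of them were followed in the RNA of mouse lung endothelial cells (MLEC). The members were Ccl2, Ccl7, Ccl5, Cxcl1, Cxcl2, Cxcl5, Cxcl10, Cxcl12, Cxcl14 and Cx3cl1, found by an exact match of their symbols among the 38472 genes of the deposited table. Of these 10, 9 could be tested together with 15604 genes in all, and Cxcl10 could not, since it was listed at 0 in each library. The cells came from lungs of C57BL/6 mice, either wild type (WT, 4 libraries lettered a, c, e and f) or AM EC-KO (3 libraries lettered b, d, g), in which Cre recombinase driven by the promoter of Cdh5, the gene for VE-cadherin, deletes a floxed Adm gene. Adm encodes adrenomedullin, a vasoactive peptide, and the deletion was designed for endothelial cells. The labels give no treatment for either group, and the age of the mice used for these cells was not given in the sources used here. For each isolation the lungs of 3 mice were pooled and cells were taken with beads against PECAM-1, and after culture were selected a second time for ICAM-2, so the libraries describe cultured cells. No source ties a library to a preparation, so the p-values given here rest on differences among libraries alone, and part of those may be technical.

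Endothelial cells make chemokines, hold them on the glycosaminoglycans of their surface and so present them to leukocytes rolling in the blood. Ligands with adjacent first cysteines (CC) mostly draw monocytes and lymphocytes, while those with a residue between the cysteines (CXC) draw neutrophils when the tripeptide Glu-Leu-Arg stands before them, and mostly lymphocytes and progenitors when it does not. In the CX3C class, 3 residues lie between the cysteines. Many inflammatory members of the family are transcribed through NF-kappaB, and some through interferon-regulated factors, whereas Cxcl12 is produced steadily by stroma and endothelium.

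The spacing of these cysteines is what divides the members into the classes used here, and the coding windows of 4 members show it. They were taken from the GENCODE M21 transcripts (GRCm38) and capitals mark the cysteine codons and, in Cxcl1, the Glu-Leu-Arg codons as well.
Ccl2: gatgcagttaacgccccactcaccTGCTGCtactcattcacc
Cxcl1: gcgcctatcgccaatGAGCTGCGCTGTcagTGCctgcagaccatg
Cxcl12: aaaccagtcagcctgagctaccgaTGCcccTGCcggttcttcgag
Cx3cl1: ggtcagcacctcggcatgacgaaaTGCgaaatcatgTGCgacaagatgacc
The Cxcl1 window lies in exon 2 at chr5:90891472-90891516 and that of Cxcl12 in exon 2 at chr6:117171484-117171528, while the windows of Ccl2 and Cx3cl1 each run from exon 1 into exon 2.

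Several members are neighbours in the genome. Ccl2 (chr11:82035571-82037453, GRCm38) and Ccl7 (chr11:82045712-82047525) lie 8.3 kb apart on chromosome 11. On chromosome 5, Cxcl5 (chr5:90759299-90761625) lies 129.6 kb from Cxcl1 (chr5:90891241-90893115), which in turn lies 10.8 kb from Cxcl2 (chr5:90903899-90905909). Cxcl12 (chr6:117168535-117181367) and Cx3cl1 (chr8:94772009-94782423) stand alone among the members. For 3 genes the deposited interval covered little of the GENCODE gene, namely 133 bases of exon 1 for Ccl5, 136 bases of exon 1 for Cxcl10 and 442 bases of exon 1 for Cxcl14. The longest run of identical bases was 110 between Cxcl2 and its paralogue Cxcl3, 23 between Ccl2 and Ccl7 and 23 between Cxcl1 and Cxcl2, all shorter than the reads of 150 bases.

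The promoters of the neighbours Cxcl1 and Cxcl2 are printed because these genes were high in the same library. The windows are the 250 bases before the start in RefSeq (GRCm38.p6, plus strand), and capitals mark a match to the kappaB consensus.
Cxcl1, chr5:90890995-90891244: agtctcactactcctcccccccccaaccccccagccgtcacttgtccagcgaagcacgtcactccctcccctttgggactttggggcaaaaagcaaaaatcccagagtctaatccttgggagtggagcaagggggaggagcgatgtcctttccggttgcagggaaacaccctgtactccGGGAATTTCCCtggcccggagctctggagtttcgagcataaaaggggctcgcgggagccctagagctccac
Cxcl2, chr5:90903649-90903898: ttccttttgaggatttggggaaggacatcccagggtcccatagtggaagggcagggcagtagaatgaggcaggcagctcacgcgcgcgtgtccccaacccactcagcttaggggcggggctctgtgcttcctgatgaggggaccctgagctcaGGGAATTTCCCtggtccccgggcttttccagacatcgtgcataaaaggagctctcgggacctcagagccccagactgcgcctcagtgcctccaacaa
Both genes carried the same run GGGAATTTCCC, which starts 71 bases before the start in Cxcl1 and 97 bases before it in Cxcl2, and which holds 2 overlapping matches, 1 on each strand. The searched windows run on for 50 bases after the start, 300 bases in all, and the kappaB consensus, searched on both strands, occurred in 8.46% of 32851 of them. Of the 6 members with a window in this table, Cxcl10 held 3 kappaB matches and 1 match to the core of the interferon-stimulated response element, Cxcl14 held 1 match to that core, and Cxcl12 and Cx3cl1 held neither. The core occurred in 3.44% of all windows. A match is a description of the letters and not of a bound site.

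In the libraries as a whole, the sum of FPKM (fragments per kilobase and M mapped reads) ran from 516082 in WT e to 563134 in WT c, and low values rose in steps that give an estimate of 6.4 to 7.7 M mapped reads. WT e stood apart, with a median correlation of 0.913 with the other libraries against 0.938 to 0.946 for the rest. Between 190 and 247 genes per library were listed at 0 while their median elsewhere was at least 5 FPKM, so a value of 0 can be a failed estimate and members with such a value are given without a mean. The targeted gene Adm was at 48.2 FPKM for WT a, 70.1 for c, 76.1 for e and 43.8 for f, and 9.32 for AM EC-KO b, 17.2 for d and 0.750 for g. Pecam1 was at 364 to 454 FPKM in all libraries, while the lymphocyte genes Cd3e, Cd3g, Cd8a and Nkg7 were at 0 throughout.

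Across the panel, no chemokine passed the test between genotypes, although 3 of them, Ccl2, Cxcl1 and Cx3cl1, were lower in each AM EC-KO library than in any WT library. With limma on log2(FPKM + 1) over 15604 genes, 0 of 9 tested members passed a false discovery rate (FDR) of 0.1, where 10 genes (0.0641%) did. The deleted gene Adm did not pass either, with a log2 difference of -3.1 (SE 0.75). Its unadjusted p was 0.0046 and its adjusted p 0.95 by limma. An adjusted p of 0.95 in this test is therefore no sign that a gene was unchanged. At an unadjusted p under 0.05 there were 2 members, Ccl2 and Cx3cl1, both lower, against 3.07% of all genes in either direction. Not overlapping and lower were 3 of 9 members against 2.22% of all genes tested, and not overlapping and higher were 0 of 9 against 2.91%. The median difference of the 9 members was -0.51 on the log2 scale, against -0.0085 over all genes, and 7 of 9 were below 0. In these bulk cultures, fewer cells of a type and less RNA per cell cannot be told apart.

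Ccl2 encodes the main attractant of monocytes that bear Ccr2, and was the most abundant of the chemokines in 6 of 7 libraries. It was at 472 FPKM for WT a, 625 for c, 829 for e and 435 for f, and 349 for AM EC-KO b, 396 for d and 206 for g. WT e was the highest and AM EC-KO g the lowest, and the groups did not overlap. The means were 590 ± 179 FPKM in WT (SD, n = 4) and 317 ± 98.9 in AM EC-KO (SD, n = 3), so that the AM EC-KO mean was 53.7% of the WT mean. On the log2 scale the difference was -0.90 (SE 0.30, 95% interval -1.61 to -0.19), with an adjusted p of 0.95 over all genes by limma. An exact two-sided permutation test gave p = 0.057, the smallest that 4 against 3 libraries allow, so 0.05 could not be reached. Ccl2 stood at percentiles 97.0 to 99.6 of the tested genes, with an estimated 1072 to 4742 reads behind its values, so counting error was small beside the spread between libraries. Without WT e its WT mean was 511 FPKM.

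Ccl7, which also acts through Ccr2 and lies beside Ccl2, overlapped between genotypes. It was at 113 FPKM for WT a, 161 for c, 79.3 for e and 48.1 for f, and 82.7 for AM EC-KO b, 75.7 for d and 32 for g. WT c was highest, and the libraries f and g were the lowest of their groups. The means were 100.2 ± 48.2 and 63.5 ± 27.5 FPKM (SD, n = 4 and 3), and the log2 difference of -0.63 (SE 0.48, 95% interval -1.77 to 0.51) had an adjusted p of 0.95 by limma. Without AM EC-KO g this difference was -0.20 and without WT c it was -0.36. The libraries were also split by letter into a to d and e to g, a division that no label or source marks. Within each set, each AM EC-KO library was below each WT library. With a term for this split the difference was -0.83 (SE 0.21), with an adjusted p of 0.94 by limma. The ratio of Ccl2 to Ccl7 ran from 3.88 in WT c to 10.4 in WT e, so the pair of neighbours did not keep a fixed proportion.

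Ccl5, an attractant of T cells and monocytes, was low. It was at 3.80 FPKM for WT a, 2.92 for c, 0 for e and 1.85 for f, and 7.26 for AM EC-KO b, 1.81 for d and 0.436 for g. The highest value was in an AM EC-KO library and the groups overlapped. The log2 difference of 0.25 (SE 0.74, 95% interval -1.5 to 2.0) turned negative without AM EC-KO b, at -0.43, and without WT e, at -0.23. Its values rest on an estimated 0 to 29.7 reads, taking its transcript of 532 bases.

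**Figure D1:**
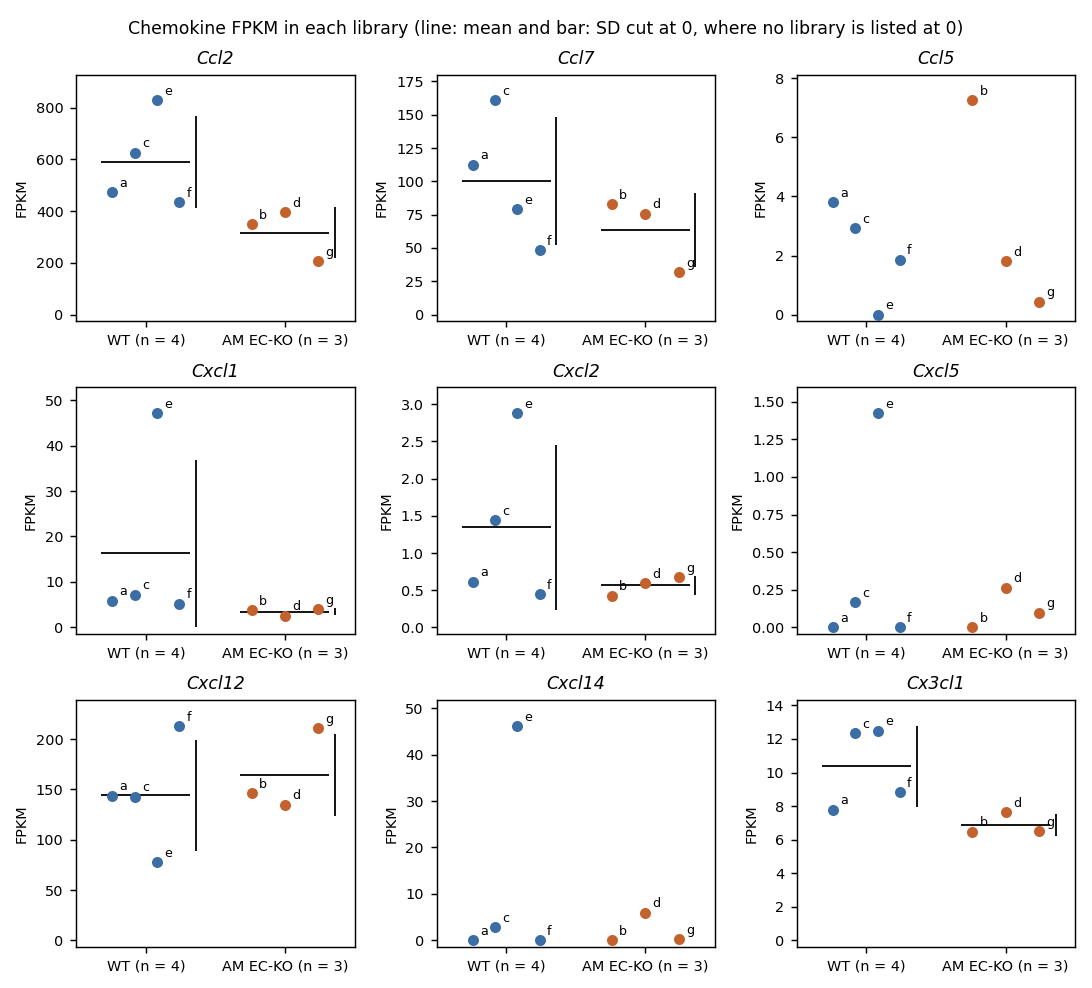
FPKM (vertical axis) of the 9 tested chemokines in each of 4 WT and 3 AM EC-KO libraries, with letters naming libraries and, for members above 0 in every library, a line for the mean and a bar for 1 SD, cut at 0. Ccl2, Cxcl1 and Cx3cl1 do not overlap between genotypes, and WT e lies far above the other libraries for Cxcl1, Cxcl5 and Cxcl14.

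The neutrophil attractants with Glu-Leu-Arg before their cysteines, Cxcl1, Cxcl2 and Cxcl5, act through Cxcr2 and were each highest in WT e. Cxcl1 was at 5.92 FPKM for WT a, 7.18 for c, 47.1 for e and 5.20 for f, and 3.85 for AM EC-KO b, 2.54 for d and 4.03 for g. The groups did not overlap, but WT e was 6.57 times the next library. The AM EC-KO values, 2.54 to 4.03 FPKM, lay below those of WT a, c and f, 5.20 to 7.18 FPKM. The means were 16.4 ± 20.5 FPKM in WT (SD, n = 4) and 3.48 ± 0.816 in AM EC-KO (SD, n = 3), and the WT mean was 6.10 without WT e. The log2 difference was -1.37 (SE 0.72, 95% interval -3.07 to 0.34), with an unadjusted p of 0.10 and an adjusted p of 0.95 by limma. Without WT e it fell in size to -0.67 (SE 0.2). An estimated 17.5 to 316 reads stand behind the values of Cxcl1.

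Cxcl2, which also draws neutrophils, was at 0.614 FPKM for WT a, 1.44 for c, 2.88 for e and 0.443 for f, and 0.425 for AM EC-KO b, 0.597 for d and 0.677 for g. WT e was 2.0 times the next library, WT c, and the groups overlapped. The means were 1.34 ± 1.11 and 0.566 ± 0.129 FPKM (SD, n = 4 and 3), with a log2 difference of -0.47 (SE 0.35, 95% interval -1.29 to 0.35) and an adjusted p of 0.95 by limma. Without WT e the difference was -0.19. With an estimated 3.6 to 22.5 reads for Cxcl2, differences among the low libraries were not detectable at this depth. Cxcl1 exceeded Cxcl2 in all 7 libraries, by 4.25 to 16.4 times.

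Cxcl5 was close to absent in all but 1 library. It was at 0 FPKM for WT a, 0.169 for c, 1.42 for e and 0 for f, and 0 for AM EC-KO b, 0.263 for d and 0.0993 for g. WT e was 5.42 times the next library, and it rests on an estimated 15.8 reads where the others have between 0 and 3.0. The log2 difference was -0.22 (SE 0.32, 95% interval -0.99 to 0.55) with an adjusted p of 0.96 by limma.

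Cxcl12, the ligand of Cxcr4 and of the scavenging receptor Cxcr7, was the second most abundant chemokine by its WT median and was lowest in WT e. It was at 144 FPKM for WT a, 143 for c, 77.7 for e and 213 for f, and 146 for AM EC-KO b, 135 for d and 211 for g. Beside the low WT e, f and g were the highest, and the groups overlapped. The means were 144 ± 55.3 and 164 ± 40.8 FPKM (SD, n = 4 and 3), with a log2 difference of 0.24 (SE 0.33, 95% interval -0.55 to 1.04) and an adjusted p of 0.96 by limma, and it was -0.023 without WT e. The interval leaves room for a change of up to 1.04 upward on that scale, so equal levels are not shown.

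Cxcl14, a ligand made mainly by epithelia and fibroblasts in resting tissue, varied most between libraries on the log2(FPKM + 1) scale. It was at 0 FPKM for WT a, 2.80 for c, 46.2 for e and 0.0778 for f, and 0.0745 for AM EC-KO b, 5.97 for d and 0.267 for g. WT e was 7.74 times the next library, AM EC-KO d, and the groups overlapped. The log2 difference of -0.82 (SE 1.45, 95% interval -4.25 to 2.62) became 0.40 without WT e. An estimated 594 reads stand behind the WT e value and 1.0 read behind those of WT f and AM EC-KO b.

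Cxcl10, an interferon-induced attractant of T cells through Cxcr3, was listed at 0 in all 7 libraries. The authors' pooled values for the genotypes were 2.06 FPKM in WT and 1.47 in AM EC-KO, and the 0 of the libraries is therefore not read as absence. No comparison was made for it.

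Cx3cl1 encodes fractalkine, which is held at the membrane of endothelium by a mucin stalk and shed by metalloproteases, and draws monocytes with Cx3cr1. It was at 7.79 FPKM for WT a, 12.4 for c, 12.5 for e and 8.82 for f, and 6.48 for AM EC-KO b, 7.63 for d and 6.52 for g. The groups did not overlap, though WT a and AM EC-KO d were close, and WT e was level with WT c. Its values rest on an estimated 18.0 to 40.3 reads with its shortest listed transcript and 138 to 310 with its longest. With the shortest, WT a had 23.6 reads and AM EC-KO d 23.9, so the gap between them was not detectable at this depth. The means were 10.4 ± 2.41 FPKM in WT (SD, n = 4) and 6.88 ± 0.649 in AM EC-KO (SD, n = 3), 66.4% of the WT mean. The log2 difference was -0.51 (SE 0.19, 95% interval -0.96 to -0.05) with an unadjusted p of 0.0339 and an adjusted p of 0.95 by limma, and the exact permutation test again gave its smallest value, p = 0.057. The highest library was 1.92 times the lowest, the narrowest spread of the 3 members without overlap.

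**Figure D2:**
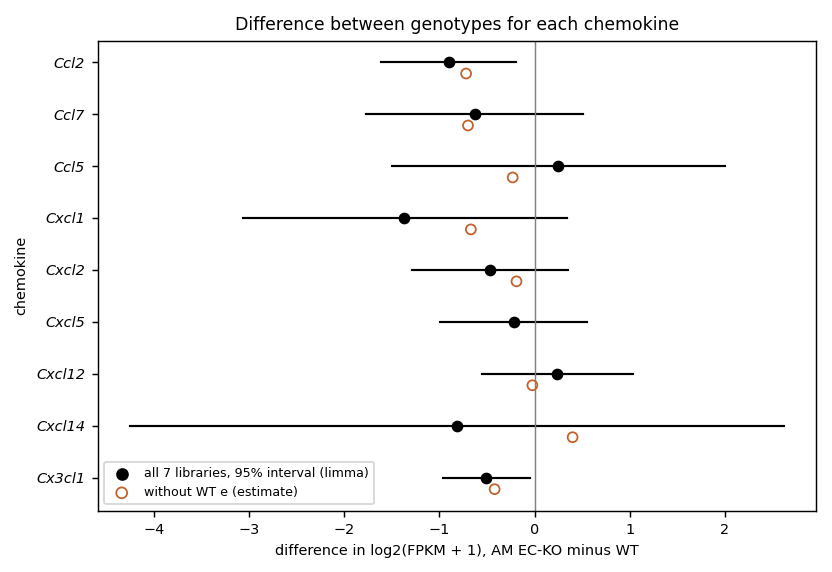
Difference in log2(FPKM + 1) between AM EC-KO and WT (horizontal axis) for the 9 tested chemokines, with 95% intervals from limma over 7 libraries as lines and the estimate without WT e as open circles (none for Cxcl5, which was then filtered out). The intervals of Ccl2 and Cx3cl1 lie below 0, those of the other members include 0, and Cxcl1 moves from -1.37 to -0.67 without WT e.

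Without WT e, 3 members were lower in every AM EC-KO library, against 3.42% of 15314 genes. These 3 had to remain, since removing a library cannot make separate groups overlap, and the signs of their differences within groups of libraries are fixed in the same way. The same split of the libraries into a to d and e to g was applied here. It was set in the analysis, and no label or source marks it. Within a to d the log2 differences were -0.55 for Ccl2, -0.86 for Cxcl1 and -0.43 for Cx3cl1. Within e to g, with 1 AM EC-KO library, they were -1.54, -1.78 and -0.61 in the same order. Ccl7 was at -0.76 and -0.93, and Cxcl12 at -0.03 and 0.71.

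The order of the members by their WT median FPKM, which is scaled by length, was Ccl2, Cxcl12, Ccl7, Cx3cl1, Cxcl1, Ccl5, Cxcl14, Cxcl2 and Cxcl5. In WT, only the ranges of Ccl2 and Cxcl12, of Ccl7 and Cx3cl1, and of Cxcl1 and Ccl5 did not overlap, while the ranges of the other neighbours overlapped. Compared within libraries, Cxcl2 exceeded Cxcl5 in 7 of 7 and Cx3cl1 exceeded Cxcl1 in 6 of 7, whereas Cxcl12 exceeded Ccl7 in 5 of 7 and in 2 of 4 WT libraries. In AM EC-KO g, Cxcl12 exceeded Ccl2. The summed FPKM of the members was 746 for WT a, 955 for c, 1096 for e and 712 for f, and 596 for AM EC-KO b, 625 for d and 461 for g, so that each AM EC-KO sum was lower than any WT sum. Ccl2, Cxcl12 and Ccl7 made up 97.0 to 97.7% of that sum in all libraries but WT e, where they made up 90.0%. Ccl2 alone, already without overlap, made up 44.7% (AM EC-KO g) to 75.6% (WT e). The mean of Cxcl12 was 164 FPKM in AM EC-KO and 144 in WT, so the lower sum does not stand for every member.

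WT e was the highest of the 7 libraries for 6 of 9 members, 66.7%, against 31.0% of all genes tested (4830). These were Ccl2, Cxcl1, Cxcl2, Cxcl5, Cxcl14 and Cx3cl1, whereas Ccl5 and Cxcl12 were lowest in that library. Libraries f and g, of different genotype, shared the highest Cxcl12, and the ratio of Cxcl12 to Ccl7 was 4.43 in f and 6.58 in g, against 0.887 in WT c.

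**Figure D3:**
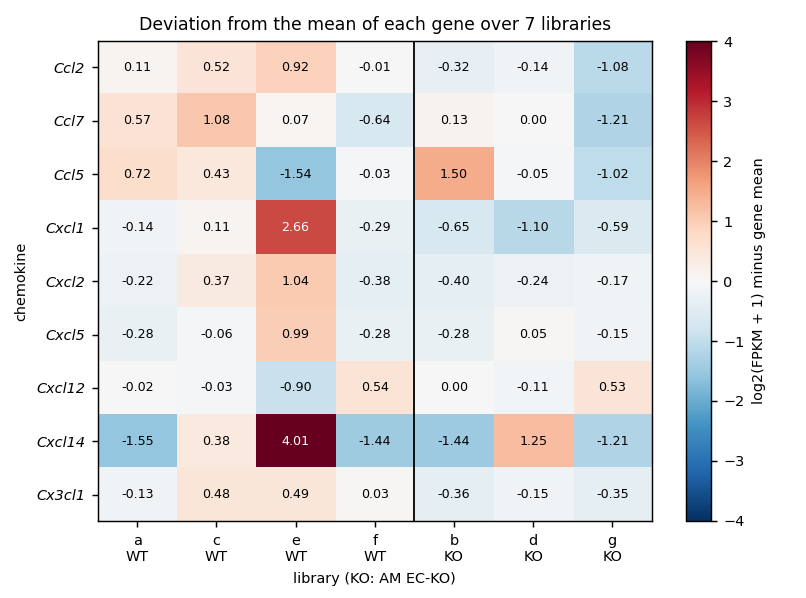
Deviation of log2(FPKM + 1) of each tested chemokine from its mean over 7 libraries (colour and printed value), with libraries in columns, WT on the left and AM EC-KO (KO) on the right. WT e is 4.01 above the mean for Cxcl14 and 2.66 for Cxcl1 and deviates by -0.90 for Cxcl12.

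Some genes of other cells and of inflammation were also high in WT e, and others were low there. Dcn, a proteoglycan of fibroblasts, reached 227 FPKM in WT e against 2.83 to 8.47 in the other libraries, and Sftpc, of alveolar type II epithelium, was at 10.3 in WT e and at 0 elsewhere. The fibroblast markers, 9 of 12 tested, summed to 769 to 1213 FPKM in WT and 719 to 885 in AM EC-KO. Most of this sum was Fn1, at 673 to 969 FPKM over the libraries and highest in WT c. WT e was highest for 4 of the 9, Dcn, Col1a1, Col1a2 and Pdgfra (44.4%, against 31.0% of all genes tested). The epithelial markers, 3 of 10 tested with Nkx2-1 and Ager at 0, summed to 26.9 to 78.7 FPKM in WT and 42.2 to 64.3 in AM EC-KO. The lowest sum was that of WT e, where Krt18 and Krt19 were at 11.7 and 1.75 FPKM, against 19.4 and 59.0 in WT a. Myeloid markers, 10 of 12 tested with Ptprc and Itgam at 0, summed to 51.7 to 138 FPKM in WT and 56.5 to 253 in AM EC-KO, where d stood apart at 253 and b and g were at 88.2 and 56.5. WT e was highest for 2 of 10 tested myeloid markers (20%), Cd14 and Csf1r, and lowest for Cd68 and Fcer1g. Of the 3 tested epithelial markers, Krt8, Krt18 and Krt19, WT e was highest for 0. Sftpc, Sftpb and Scgb1a1, each highest in WT e, were above 0 in too few libraries to be tested, so the count omits them. Smooth muscle markers, 10 of 10 tested, summed to 331 to 634 FPKM in WT and 504 to 680 in AM EC-KO, and mesothelial ones, 2 of 5 tested with Wt1 at 0, to 2.16 to 59.5 and 32.4 to 54.2. Most of the mesothelial sum was Krt19, which is also in the epithelial list. Endothelial markers, 14 of 15 tested, summed to 3722 to 4197 FPKM in WT and 3438 to 3977 in AM EC-KO, and lymphocyte ones, 0 of 7 tested, to 0 to 0.104 and 0.0164 to 0.271. No gene of these lists passed FDR 0.1 by limma. At an unadjusted p under 0.05 there were 1 higher and 1 lower endothelial marker and 1 higher smooth muscle marker, against 3.07% of all genes in either direction. The median log2 differences were -0.17 for endothelium, 0.14 for fibroblasts, 0.22 for smooth muscle and 0.38 for myeloid cells. Their part in the chemokine values was not tested.

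Regulators of NF-kappaB (subunits, inhibitors, kinases and upstream receptors) and inflammatory target genes were counted as a group, of 26 tested genes. None of the 26 passed FDR 0.1, and 1 was lower at an unadjusted p under 0.05 and 0 higher, against 3.07% of all genes in either direction. Below 0 were 21 of the 26, with a median log2 difference of -0.31. Over all genes 8079 of 15604 were below 0, and of the endothelial markers 12 of 14. WT e was highest for 14 of the 26, 53.8%, against 31.0% of all genes, 50% of the presentation genes and 50% of both the endothelial and the smooth muscle markers. Icam1, a ligand of leukocyte integrins, was at 159 FPKM for WT a, 158 for c, 220 for e and 174 for f, and 133 for AM EC-KO b, 129 for d and 151 for g. Its groups did not overlap, and its log2 difference was -0.36 (SE 0.13), with an unadjusted p of 0.030 and an adjusted p of 0.95 by limma. Birc3, an inhibitor of apoptosis, did not overlap either, at 10.8 ± 5.46 FPKM in WT (SD, n = 4) and 6.2 ± 0.404 in AM EC-KO (SD, n = 3), with WT e at 18.9. Not overlapping and lower were 2 of the 26 genes, against 2.22% of all genes tested, and not overlapping and higher were 0, against 2.91%. Nfkbia, the inhibitor of NF-kappaB, was at 56.9 ± 17.6 and 40.0 ± 4.64 FPKM and overlapped.

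Sele, Il6 and Csf3 were chosen after their values were seen, because they resembled Cxcl1 in WT e. Sele, the endothelial selectin that lets leukocytes roll, reached 60.1 FPKM in WT e against 7.0 to 19.9 in the other libraries. Il6, a cytokine, was at 29.8 in WT e and at 2.12 to 6.61 elsewhere, and Csf3, the growth factor of neutrophils, at 20.6 and at 0.399 to 4.26. The high values thus lay in the same library as those of Cxcl1, Cxcl2 and Cxcl5. The list was not uniform, since WT e was highest for 14 of its 26 tested genes. Tnfaip3, Csf1 and Tnfaip2, also picked with their values known, instead had their minimum there. These minima were 10.5, 180 and 107 FPKM in that order. The AM EC-KO mean was 131% of the WT mean for Tnfaip3, 113% for Csf1 and 96.9% for Tnfaip2, and each of these genes overlapped between genotypes.

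**Figure D4:**
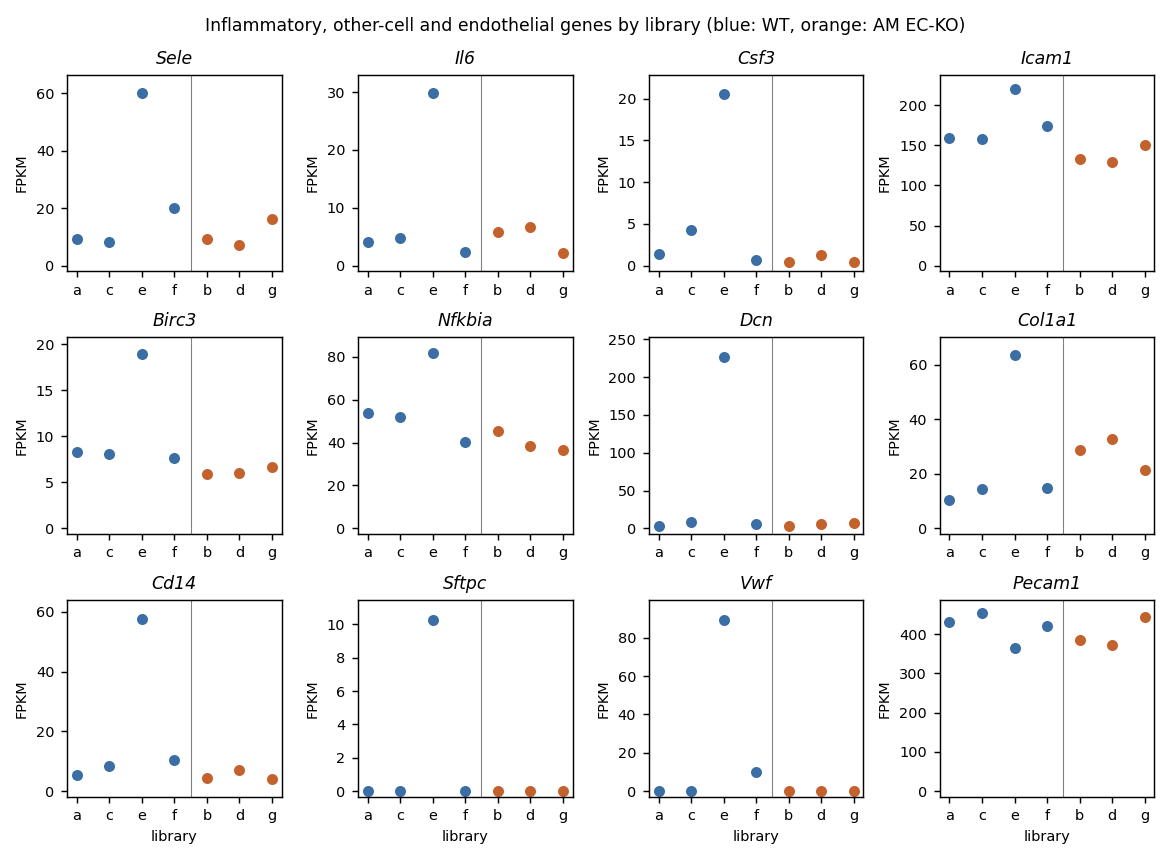
FPKM (vertical axis) of 12 inflammatory, other-cell and endothelial genes in each library (horizontal axis, blue WT, orange AM EC-KO). Sele, Il6, Csf3, Icam1, Birc3, Nfkbia, Dcn, Col1a1, Cd14, Sftpc and Vwf are highest in WT e, and Pecam1 stays at 364 to 454 FPKM. WT e was highest for 2 of the 10 tested myeloid markers, and Sftpc and Vwf were not tested. Icam1 and Birc3 do not overlap between genotypes, and they are 2 of 26 such genes in their list, against 2.22% of all genes tested.

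Further chemokine ligands were counted to set the members beside the rest of the family. Of 29 such genes, 11 were tested, with 0 past FDR 0.1, 0 at an unadjusted p under 0.05, 7 below 0 and a median log2 difference of -0.09. Cxcl16, a membrane-bound ligand of Cxcr6, was the abundant one, at 42.2 FPKM for WT a, 42.8 for c, 85.6 for e and 52.1 for f, and 42.2 for AM EC-KO b, 40.1 for d and 61.2 for g. It overlapped, with means of 55.7 ± 20.4 and 47.8 ± 11.6 FPKM. Pf4, Cxcl17, Ccl4 and Ccl28 stayed at or under 6.58 FPKM in every library, and Cxcl9 was listed at 0.

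Among the receptors, 11 of 24 were tested, none passed FDR 0.1, 0 had an unadjusted p under 0.05 and the median log2 difference was -0.11. Ccr2, the receptor of Ccl2 and Ccl7, was listed at 0 in all libraries, and Cx3cr1 was at or under 0.272 FPKM. Cxcr4 was at 5.13 FPKM for WT a, 12 for c, 32.6 for e and 10.3 for f, and 4.4 for AM EC-KO b, 7.67 for d and 6.14 for g. It overlapped, with WT e highest and a log2 difference of -0.93 (SE 0.54). Cxcr7 was at 166 FPKM in WT f and 82.1 in AM EC-KO g and at 17.6 to 34.2 in the other libraries, so it was high in the same libraries as its ligand Cxcl12. Darc, a chemokine-binding receptor of venules, reached 12 FPKM in WT e and was at or under 0.410 elsewhere.

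Interferon targets, 13 tested, had 0 past FDR 0.1 and 0 at an unadjusted p under 0.05, with 6 below 0, 7 above and a median of 0.01. Genes that present or cleave chemokines, 16 tested, had 0 past FDR 0.1 and 0 at an unadjusted p under 0.05, with 8 below and 8 above 0 and a median of -0.07. Sdc3, a heparan sulphate proteoglycan, was at 55.1 ± 9.82 FPKM in WT (SD, n = 4) and 67.4 ± 7.42 in AM EC-KO (SD, n = 3) and overlapped. Adam10 and Adam17, the proteases that shed fractalkine, were at 51.1 to 65.0 FPKM and 17.1 to 24.8 FPKM over all libraries.

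For the 6 members above 0 in every library, the 2 genes of highest Pearson correlation were looked up among 11010 genes, over 7 libraries that the points share. For Ccl2 these were Mcph1 (r = 0.983) and Shroom4 (r = 0.981), and for Ccl7 they were Cttnbp2nl (r = 0.988) and Nip7 (r = 0.974). For Cxcl1 they were Grsf1 (r = 0.995) and Sf3a1 (r = 0.993), for Cxcl2 Pcdhb16 (r = 0.994) and Cep120 (r = 0.987), and for Cxcl12 Tspo (r = 0.994) and Emc3 (r = 0.991). For Cx3cl1 they were Cdh5 (r = 0.985), the gene of VE-cadherin whose promoter drives Cre, and B4galt1 (r = 0.982). Cdh5 was at 287 FPKM for WT a, 393 for c, 394 for e and 311 for f, and 259 for AM EC-KO b, 295 for d and 281 for g, and its groups overlapped. With 7 libraries and so many genes, values of this size are a description only.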

How the data were processed

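RNA of cultured MLEC was analysed from 4 WT and 3 AM EC-KO libraries, grouped by their labels. The authors deposited 1 table of FPKM, by library and pooled by genotype, from single reads trimmed with Cutadapt and mapped to GRCm38 with TopHat2 2.0.6, and the submitters' processing notes also name Cufflinks and Cuffdiff. FPKM keep no read totals, so depth was estimated from the steps of low values, of which 57.9 to 62.2% lay within 0.1 read of a whole number, and no count model was fitted. The authors' deposited fold changes, p-values and q-values and their splicing score were not used.

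From the library FPKM, log2(FPKM + 1) was tested with limma 3.58.1 (trended empirical Bayes) in R 4.3.3, with Benjamini-Hochberg adjustment over 15604 genes that had a mean of at least 0.1 FPKM and at least 3 libraries above 0. The pseudocount makes the fold change of low genes smaller. Of the table's genes, 172 had no library values. Exact permutation tests used all 35 assignments of libraries. scipy 1.17.1, pandas 2.3.3 and numpy 2.4.6 under Python 3.11.15 and, for figures, matplotlib 3.10.9 were used, and the code was tested on simulated data. Estimated reads cover counting error only. Coding windows are from GENCODE M21 and promoters from RefSeq.

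Named genes are the members, Adm, up to 4 genes of each list by smallest p, the 2 most abundant markers of each list and the 2 genes most alike each member, and predicted genes were not named. Genes named beside these for their role or their values in WT e, among them Sele, Il6, Csf3, Darc, Cxcr7, Dcn, Sftpc, Cd14, Vwf, Adam10, Adam17 and the markers listed at 0, were chosen after their values were seen. The members and lists were chosen with earlier results of these data known. Alternatives were other pseudocounts, filters and scalings, limma without a trend, array weights, a term for library letters and each library left out.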

Additional observations from a re-analysis of the deposited data

Results flagged for a closer look

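In 3 chemokines, WT e lay far from the other 3 WT libraries by Dixon's test on FPKM, which divides the gap to the nearest library by the range and passed its 95% critical value for 4 libraries. The quotient was 0.953 for Cxcl1, 0.939 for Cxcl14 and 0.881 for Cxcl5. Chance flags about 1 in 20 groups only if values are normally distributed, which FPKM need not be. The share of all genes flagged in this way was not counted, so it is not known how unusual these flags are. The 3 values come from the same library and are not independent of each other.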

How the results depend on the processing

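No member passed FDR 0.1 under any alternative in which it was tested, with a lowest adjusted p of 0.85 by limma. Of 148 values of members under alternatives, 142 kept the direction and 6 reversed. Ccl5 reversed to -0.0029 with a term for library letters, to -0.43 without AM EC-KO b and to -0.23 without WT e. Cxcl12 reversed to -0.023 without WT e, and Cxcl14 to 0.031 with array weights and to 0.40 without WT e. The cause was not tested. With a library left out, Ccl5 ran from -0.43 to 0.83, Cxcl12 from -0.023 to 0.46 and Cxcl14 from -1.68 to 0.40. The differences ran from -1.09 to -0.62 for Ccl2, -1.66 to -0.67 for Cxcl1 and -0.62 to -0.42 for Cx3cl1. The genes past FDR 0.1 were 10 at first, 18 with a pseudocount of 0.1, 17 with 0.01 and 0 among genes above 0 in every library, and 8 to 39 with a library left out. The 3 members lower in every AM EC-KO library were also 3 with TPM and with quantile normalization, alternatives chosen after seeing the data. Leaving out a library, also added then, cannot lower this count, and it was 3 each time. Cxcl5 was not tested under the stricter filters or without WT e, nor Ccl5 and Cxcl14 among genes above 0 in every library. With a pseudocount of 0.01, Ccl5 was at 1.42, Cxcl2 at -0.88, Cxcl5 at -0.091 and Cxcl14 at -0.16, and with array weights Cxcl1 was at -0.91 and Cxcl5 at -0.023. No paired analysis was possible because the labels share no numbers between genotypes. Estimated reads limit Cxcl5, Cxcl14, Cxcl2 and Ccl5 most.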
